A study of Mus musculus with 10 samples.

Results

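A set of 10 genes that mark vascular smooth muscle cells and pericytes was followed through a data set on mouse skeletal muscle with and without the RNA-binding protein IMP2. The 10 genes, Acta2, Tagln, Myh11, Cnn1, Mylk, Lmod1, Rgs5, Pdgfrb, Notch3 and Cspg4, were taken by name from a list of mural cell genes, and each was found among the 43629 genes counted in every library. All 10 had reads in all 10 libraries and passed the filter on low counts in every comparison. Mural cells wrap the blood vessels of a muscle. Smooth muscle cells form the contractile wall of arteries and arterioles and carry their own set of actin, myosin and actin-binding proteins, while pericytes sit singly on capillaries and are held there by growth factor signals from the endothelium. In a skeletal muscle these cells are a small part of a tissue filled with fibres, which use other members of the same actin, myosin and leiomodin families.

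RNA was sequenced from knockout (KO) and wild-type (WT) muscle both as RNA recovered with an antibody against IMP2 (IP) and as total RNA. There were 2 KO IP, 2 WT IP, 3 KO total RNA and 3 WT total RNA libraries. All came from male C57BL/6 mice aged 6 weeks after 2 weeks on the diet labelled HFD, and the antibody was made by the submitters. The sample labels call the KO an IMP2 null genotype, while the series describes a knockout specific to muscle, and what would restrict it to muscle fibres was not given, so whether mural cells of KO mice lack IMP2 cannot be told from these sources.

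Reads assigned to genes came to 9691580 to 10739792 in KO total RNA and 12299030 to 14809788 in WT total RNA, but only to 917462 and 4037480 in KO IP and 2159115 and 2547124 in WT IP. In CPM, that is counts scaled to library size, a count of 3 stood for 0.203 to 0.310 in total RNA libraries and 0.743 to 3.27 in IP libraries, so low genes are least precise in IP. Igf2bp2, the gene for IMP2, had 21, 19 and 21 counts in KO total RNA against 35, 37 and 48 in WT total RNA, and 9 and 25 counts in KO IP against 28 and 4 in WT IP. Scaled with TMM factors, the total RNA counts came to 2.335, 1.75 and 2.32 CPM in KO and 2.326, 2.68 and 3.16 CPM in WT. The total RNA groups then overlapped, with KO library 1 above WT library 1. The low counts did not separate the genotypes in IP either. The part of the gene that was deleted was not given, so the genotypes are those of the labels. Of the total RNA libraries, KO library 1 held pancreatic islet transcripts (7 genes, 2205 CPM in sum, against at most 2.10 CPM in the others) and WT library 2 held adipocyte transcripts (9 genes, 975 CPM in sum, against 44.9 to 157 CPM in the others). The islet genes summed to 414 and 156 CPM in KO IP and 47.8 and 378 CPM in WT IP.

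The genes lie on 6 chromosomes of GRCm38 and their models are protein coding. Those of the contractile apparatus were Acta2 (ENSMUSG00000035783; chromosome 19, 34241090 to 34255590, minus strand), Tagln (ENSMUSG00000032085; chromosome 9, 45929619 to 45936058, minus), Myh11 (ENSMUSG00000018830; chromosome 16, 14194535 to 14291372, minus), Cnn1 (ENSMUSG00000001349; chromosome 9, 22099216 to 22109630, plus), Mylk (ENSMUSG00000022836; chromosome 16, 34745210 to 35002420, plus) and Lmod1 (ENSMUSG00000048096; chromosome 1, 135324807 to 135368065, plus). Those of signalling and the cell surface were Rgs5 (ENSMUSG00000026678; chromosome 1, 169655501 to 169695813, plus), Pdgfrb (ENSMUSG00000024620; chromosome 18, 61045150 to 61085061, plus), Notch3 (ENSMUSG00000038146; chromosome 17, 32120820 to 32166852, minus) and Cspg4 (ENSMUSG00000032911; chromosome 9, 56865033 to 56899870, plus). Exons of Tagln overlap exons of Pcsk7 on the opposite strand, and exons of Notch3 and Mylk overlap antisense genes. Since the strand setting of the counting was not given, reads of these genes and of their partners may not be separated. Pcsk7 had 1991 counts over all 10 libraries and the antisense partner of Notch3, Gm17276, had 30.

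Acta2 is the gene whose reads could most easily be mixed with those of muscle fibres, because Acta1, the skeletal muscle actin, had between 252861 and 636205 counts in a total RNA library. The first 90 coding bases of both genes are shown here for that reason, from the GENCODE M21 transcripts, with capitals at the 22 bases that differ.

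Acta2: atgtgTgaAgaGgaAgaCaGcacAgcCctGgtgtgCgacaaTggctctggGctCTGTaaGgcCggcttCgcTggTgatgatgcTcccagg

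Acta1: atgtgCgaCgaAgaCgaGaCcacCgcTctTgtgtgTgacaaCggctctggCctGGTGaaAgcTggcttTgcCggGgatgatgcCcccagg

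Over the whole coding sequence of 1134 bases, 166 bases differed, which left 85.4% identical, and the longest run without a difference was 29 bases. No stretch of 50 bases in the Acta2 transcripts was found in an Acta1 transcript, and 7 of 2146 such stretches (0.326%) were found in any other gene, Actg1 and an actin pseudogene. Myh11, the smooth muscle myosin heavy chain, shared 26 of 7644 stretches (0.340%), with Myh9 and Myh10, the non-muscle myosins. Mylk shared 12 of 11202 (0.107%), Notch3 7 of 8086 (0.0870%), and the other 6 genes shared none. Only the strand of the transcript was searched. Sequence shared with genes on the opposite strand, as of Tagln with Pcsk7, was therefore not counted. Acta2 counts were 0.0697%, 0.130% and 0.123% of Acta1 counts in KO total RNA and 0.0912%, 0.100% and 0.164% in WT total RNA. Whether a part of the Acta2 counts came from Acta1 reads was not tested.

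Many smooth muscle genes are known to be switched on through CArG boxes, short sites with a core of A and T between CC and GG that bind serum response factor. RefSeq windows from 250 bases before to 50 bases after the start site (GRCm38.p6) were at hand for 7 of the 10 genes, all but Tagln, Myh11 and Pdgfrb. The window of Mylk (chr16:34784700-34784999) lies inside the GENCODE gene given above, downstream of its start at 34745210, and so does not cover that start. An exact CArG box was in none of the 7, against 1.63% of 32851 windows of all genes. Allowing 1 C or G in the core, Acta2 held 2 such boxes and the other 6 genes held none, while 9.98% of all windows held at least 1. These letters were searched on the strand of the gene, since the box reads as the same pattern on both. The 2 boxes of Acta2 are shown with their flanks, the box in capitals and the strand that of the gene (minus). The first box begins 84 bases before the RefSeq start site, and the bases printed with it lie at chr19:34255438-34255467. The second begins 34 bases before that site, and its printed bases lie at chr19:34255388-34255417. The RefSeq start differs from that of the GENCODE model given above, which begins further upstream, so that both boxes lie inside the GENCODE gene.

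Acta2 box 1: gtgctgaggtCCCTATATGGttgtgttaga

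Acta2 box 2: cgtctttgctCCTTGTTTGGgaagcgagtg

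A match is a description of the letters and was not tested for function here.

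Levels were first set in order within total RNA, as CPM divided by the length of the gene's merged exons in kilobases. Rgs5, an inhibitor of G protein signalling that is best known as a pericyte marker, was the highest of the 10, at 131 ± 23.2 CPM per kilobase in KO and 84.6 ± 9.37 in WT (SD, n = 3 each). It stood above the next gene by far more than their spread. Acta2, the smooth muscle actin, and Tagln, an actin-binding protein of the contractile filaments, followed. Acta2 was at 26.0 ± 8.37 CPM per kilobase in KO and 16.4 ± 4.33 in WT, and Tagln at 24.7 ± 9.43 in KO and 17.4 ± 2.63 in WT. Pdgfrb, the receptor through which pericytes answer platelet-derived growth factor, was at 17.1 ± 3.34 in KO and 13.8 ± 2.54 in WT. These 3 genes did not differ from each other beyond their spread in either genotype.

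Notch3, a Notch receptor of mural cells, was at 9.61 ± 1.64 CPM per kilobase in KO and 7.28 ± 1.37 in WT, and Myh11 at 6.39 ± 0.644 in KO and 5.86 ± 0.888 in WT. The ranges of mean ± SD of Notch3 and Myh11 overlapped in WT and not in KO. Mylk, the kinase that phosphorylates myosin light chains, was at 2.75 ± 0.335 in KO and 2.75 ± 0.632 in WT. Cspg4, a surface proteoglycan also known as NG2, was at 3.35 ± 0.531 in KO and 2.29 ± 0.617 in WT, and Lmod1, a nucleator of smooth muscle actin filaments, at 2.27 ± 0.583 in KO and 1.97 ± 0.300 in WT. These 3 were not separated beyond their spread in either genotype. Cnn1, a calponin that binds actin and myosin, was lowest at 0.582 ± 0.261 in KO and 0.549 ± 0.285 in WT, from 8 to 33 counts per library. Fibre genes of the same families were far higher. Acta1 was at 34704 ± 5083 CPM per kilobase in KO and 21849 ± 9894 in WT.

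**Figure D1:**
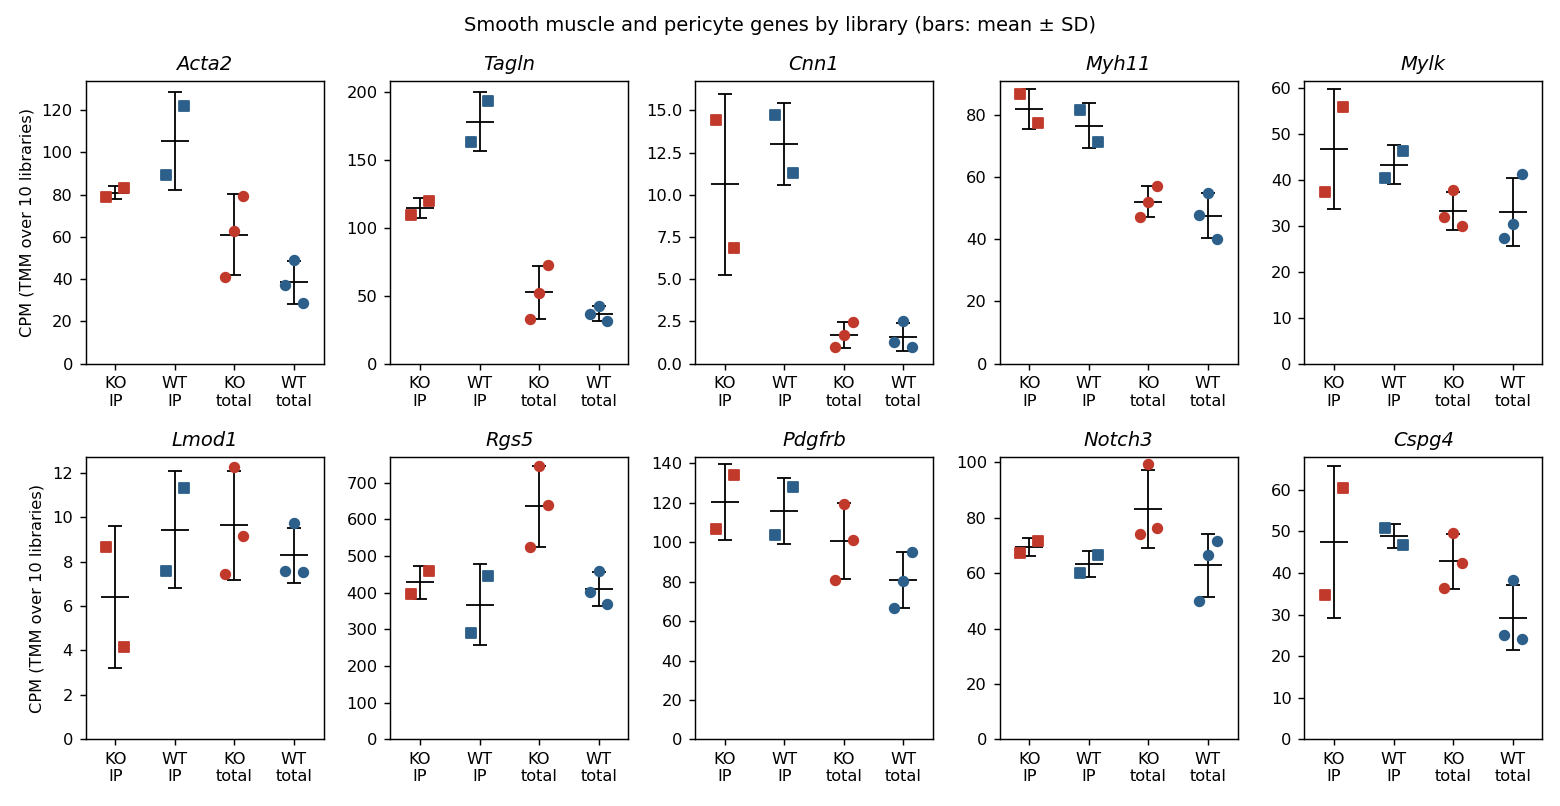
Level of each of the 10 genes in every library, in CPM with TMM factors over all 10 libraries (y axis, from 0), for KO IP, WT IP, KO total RNA and WT total RNA. Points are libraries (squares IP, circles total RNA) and bars are mean ± SD. Tagln, Cnn1 and Myh11 lie higher in every IP library than in every total RNA library of both genotypes.

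The first comparison asked whether mural cell genes differ between KO and WT muscle in total RNA. None of the 10 genes passed the test, and none of the 13169 genes tested passed it (0%; edgeR quasi-likelihood test, Benjamini-Hochberg adjusted p under 0.05). At an unadjusted p under 0.05 there were 569 genes, 4.32% of those tested, of which 267 (2.03%) were higher in KO. The fitted log2 fold change was above 0 for 10 of the 10 genes, with a median of 0.35, against 48.0% of all genes tested, whose median was -0.01. With library size alone in place of TMM factors, 7 of 10 were above 0, Myh11, Cnn1 and Mylk being below it, and the medians were 0.13 for the 10 genes and -0.23 for all genes. With TMM factors and 1 library left out at a time, the median of the 10 genes was lowest without KO library 2 (0.21) or WT library 1 (0.22) and highest without WT library 2 (0.53). In bulk RNA, fewer cells of a type and less RNA per cell cannot be told apart.

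Rgs5 and Notch3 were the genes whose libraries did not overlap between genotypes, which held for 9.61% of all genes in either direction, 4.76% with KO higher and 4.85% with KO lower. Rgs5 had 486, 696 and 599.9 CPM in KO libraries 1, 2 and 3 against 373, 432 and 349 CPM in WT libraries. Every KO library was above every WT library. For Rgs5 the log2 fold change was 0.63 ± 0.19 (SE), with an unadjusted p of 0.0082 and an adjusted p of 0.897 in edgeR's quasi-likelihood test. Notch3 had 68.7, 93.0 and 71.6 CPM in KO libraries and 46.4, 62.6 and 67.8 CPM in WT libraries. Its lowest KO library was close to its highest WT library, and the log2 fold change was 0.40 ± 0.19 with an adjusted p of 0.897 by the same test.

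Among the contractile genes, Cnn1, Tagln and Acta2 had the widest spread within KO on the log2 scale. Acta2 had 37.9, 58.6 and 74.5 CPM in KO libraries and 34.6, 46.1 and 27.3 CPM in WT libraries. KO libraries 2 and 3 were above all WT libraries and KO library 1 was among them. For Acta2 the log2 fold change was 0.66 ± 0.27, with an unadjusted p of 0.0347 and an adjusted p of 0.897 in edgeR's test. Tagln had 30.7, 48.4 and 68.2 CPM in KO libraries and 33.6, 40.1 and 29.8 CPM in WT libraries. It had the same order of KO libraries as Acta2, and a log2 fold change of 0.51 ± 0.26 (adjusted p = 0.897, edgeR).

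Myh11 and Mylk were nearly level between the genotypes. Myh11 had 43.7, 48.6 and 53.5 CPM in KO libraries and 44.4, 51.3 and 37.9 CPM in WT libraries, a log2 fold change of 0.13 ± 0.16. Mylk had 29.6, 35.3 and 28.1 CPM in KO libraries and 25.4, 28.5 and 39.0 CPM in WT libraries, a log2 fold change of 0.00 ± 0.19. For Mylk the WT libraries spanned the KO libraries. For Myh11 the groups overlapped in part, the highest library being a KO one and the lowest a WT one. Lmod1 had 6.89, 11.4 and 8.60 CPM in KO libraries and 7.04, 9.13 and 7.11 CPM in WT libraries, a log2 fold change of 0.22 ± 0.23. Cnn1 had 0.889, 1.57 and 2.32 CPM in KO libraries and 1.20, 2.39 and 0.922 CPM in WT libraries, a log2 fold change of 0.09 ± 0.47. Cnn1, at 8 to 33 counts per library, had the largest standard error of the 10. For both genes the groups overlapped, and neither passed the test.

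Within a library, counts of 2 genes can be set against each other without any scaling between libraries. Tagln counts were 0.702, 0.996 and 1.27 times those of Myh11 in KO total RNA and 0.757, 0.781 and 0.786 times in WT total RNA. Acta2 counts were 0.868, 1.21 and 1.39 times those of Myh11 in KO and 0.780, 0.898 and 0.720 times in WT. So KO libraries 2 and 3 held more Acta2 and more Tagln per read of Myh11 than any WT library, and KO library 1 did not stand above WT library 2 for Acta2 or above any WT library for Tagln.

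Of the pericyte genes, Pdgfrb had 74.9, 112 and 94.8 CPM in KO libraries and 61.9, 75.5 and 89.8 CPM in WT libraries. KO library 1 lay below WT libraries 2 and 3, and the log2 fold change was 0.31 ± 0.20 (adjusted p = 0.897, edgeR). Cspg4 had 33.7, 46.3 and 39.8 CPM in KO libraries and 23.4, 35.8 and 22.8 CPM in WT libraries. KO library 1 lay below WT library 2 and above the other WT libraries. Cspg4 had a log2 fold change of 0.55 ± 0.21, with an unadjusted p of 0.029 and an adjusted p of 0.897 in edgeR's test. Acta2, Rgs5 and Cspg4 were the 3 of 10 genes with an unadjusted p under 0.05 in edgeR's test, all higher in KO. Of all 13169 genes tested, 4.32% had such a p, 2.03% with KO higher, and none passed after adjustment.

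**Figure D2:**
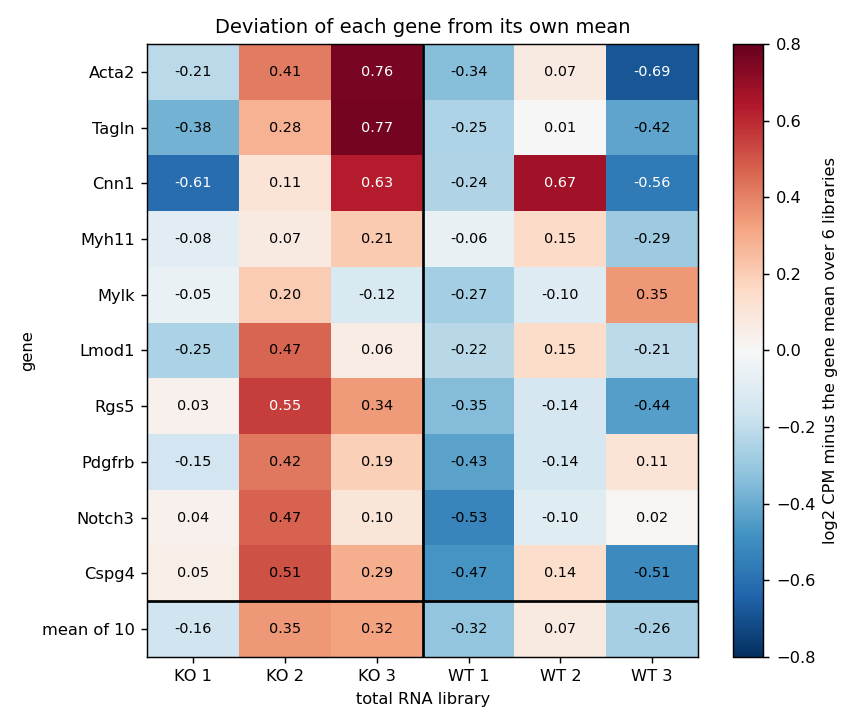
Deviation of each gene's log2 CPM from its own mean over the 6 total RNA libraries (colour and printed value), with KO libraries on the left, WT libraries on the right and the mean of the 10 genes in the bottom row. The mean was 0.35 and 0.32 in KO libraries 2 and 3, -0.16 in KO library 1, and between -0.32 and 0.07 in WT libraries.

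The 10 genes did not vary as 1 block. Averaged over the genes, the deviation from each gene's mean was -0.16, 0.35 and 0.32 in KO libraries 1, 2 and 3 and -0.32, 0.07 and -0.26 in WT libraries, on the log2 scale. Acta2, Tagln and Myh11 were highest in KO library 3, and Cnn1 in WT library 2 with KO library 3 next. Rgs5, Pdgfrb, Notch3, Cspg4 and Lmod1 were highest in KO library 2. Mylk was highest in WT library 3. The root mean square distance from the average profile was smallest for Lmod1 (0.134) and largest for Cnn1 (0.366), the gene with the fewest counts. The 5 genes outside the list closest to the average profile, among 9438 genes of at least 5 CPM over the 6 libraries, were Scd2 (0.0316), Cmbl (0.0515), Msn (0.0620), Steap4 (0.0726) and Cask (0.0748), and Steap4 is itself used as a pericyte marker.

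Other genes of the same cells were looked at from lists by cell type and role. Of 14 further pericyte genes, all 14 were tested, none passed, and 14 had a fold change above 0, with a median log2 of 0.32. Vtn, which encodes vitronectin, had 20.5 to 44.3 CPM in KO and 15.7 to 21.8 CPM in WT, which overlapped, and a log2 fold change of 0.76 ± 0.27. Steap4, a metalloreductase, averaged 49.8 ± 6.46 CPM in KO and 38.1 ± 5.14 CPM in WT (SD, n = 3 each), Ndufa4l2, a mitochondrial protein, 14.2 ± 4.86 CPM in KO and 9.71 ± 1.19 CPM in WT, and Kcnj8, a pore subunit of the ATP-sensitive potassium channel, 33.9 ± 6.69 CPM in KO and 26.7 ± 1.07 CPM in WT. The adjusted p was 0.897 for all 4 in edgeR's test.

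Of 12 further genes of the smooth muscle contractile apparatus and its attachments, 11 were tested, none passed and 9 were above 0, with a median log2 of 0.29. Myl9, the regulatory light chain of smooth muscle myosin, averaged 66.0 ± 16.3 CPM in KO and 37.4 ± 11.4 CPM in WT, a log2 fold change of 0.82 ± 0.26 with an unadjusted p of 0.0124 and an adjusted p of 0.897 (edgeR). The lowest KO library of Myl9 (47.1 CPM) was just above the highest WT library (46.9 CPM). Tpm4, a tropomyosin, and Actn1, an actinin, had log2 fold changes of 0.36 ± 0.19 and 0.35 ± 0.19, while Vcl, which encodes vinculin of cell attachments, had -0.32 ± 0.17. None of these passed the test.

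Of 11 regulators of smooth muscle genes, 9 were tested, none passed and 5 were above 0, with a median log2 of 0.03, so they lay near the median of all genes. Csrp1, a LIM protein of smooth muscle, had a log2 fold change of 0.59 ± 0.23 and Fhl1, a LIM protein abundant in muscle fibres, -0.50 ± 0.30. Mrtfa and Mrtfb, coactivators of serum response factor, had 0.16 ± 0.21 and 0.16 ± 0.16. Myocd, the smooth muscle coactivator of the same factor, was not tested because of its low counts. It had 1, 1 and 2 counts in KO total RNA, 5, 7 and 5 in WT total RNA and 0 in every IP library, and was picked out after its values were seen.

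Of 29 genes of mural cell recruitment and Notch signalling, 28 were tested, none passed and 22 were above 0, with a median log2 of 0.21. Eng, a TGF-beta coreceptor of endothelium, had a log2 fold change of 0.44 ± 0.16, S1pr3, a sphingosine 1-phosphate receptor, 0.66 ± 0.25, Heyl, a target gene of Notch, 0.52 ± 0.23, and Ednra, the endothelin receptor of smooth muscle, 0.49 ± 0.21. Their unadjusted p-values were 0.0187, 0.027, 0.0462 and 0.0482, and the adjusted p was 0.897 for each in edgeR's test.

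Genes of other cell types were measured in the same libraries. Of 12 endothelial genes, 10 had a log2 fold change above 0, with a median of 0.26, and none passed. Their summed level was 853, 1197 and 999 CPM in KO libraries 1, 2 and 3 and 744, 899 and 1023 CPM in WT libraries, with none of the 12 at 0. The summed level of the 10 mural genes was 813, 1151 and 1041 CPM in KO and 651, 784 and 672 CPM in WT, a sum in which Rgs5 was the largest term. The 10 genes of fast fibres were all above 0 with a median log2 of 0.56, and summed to 210326, 191125 and 248622 CPM in KO and 166415, 173977 and 102377 CPM in WT. Of the other cell types, 8 of 8 tested genes of satellite cells and developing muscle (median log2 0.67) and 6 of 7 Schwann cell genes (0.59) were above 0, while 0 of 8 tested adipocyte genes (-0.93) and 0 of 8 macrophage genes (-0.17) were. Fibroblast genes (6 of 10 above 0, median 0.05), slow fibre genes (4 of 7, 0.01), tendon genes (4 of 7, 0.06) and red blood cell genes (2 of 5, -0.05) lay near the median of all genes. No gene of these lists passed. The part of any of these contents in the mural values was not tested. Without KO library 1 and WT library 2, the libraries with islet and adipocyte transcripts, the median log2 of the 10 genes was 0.69, and 0 of the 10 passed.

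**Figure D3:**
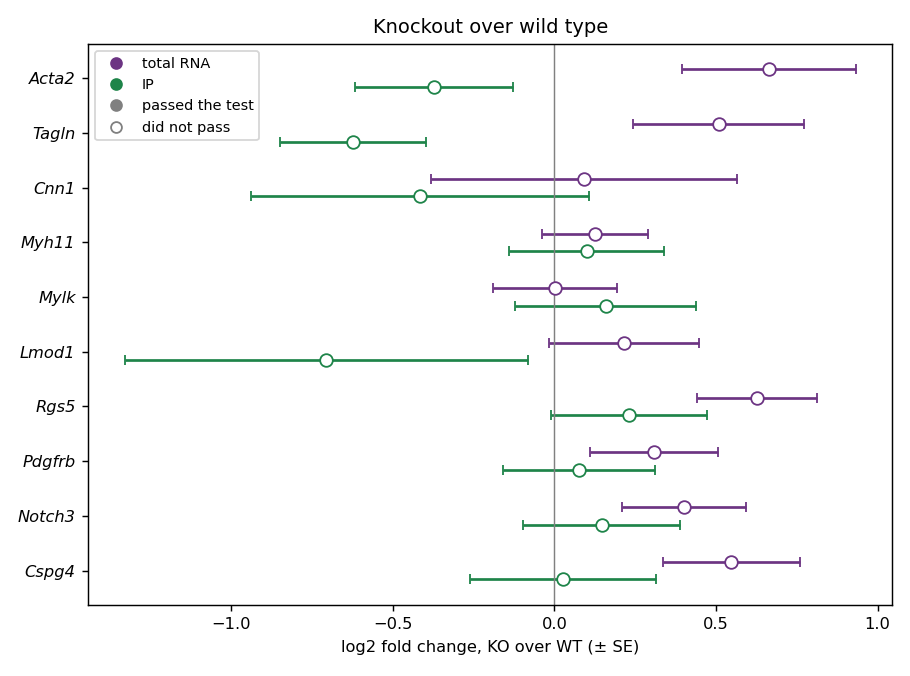
Log2 fold change of KO over WT (x axis, points, with bars of ± SE) for each of the 10 genes in total RNA (purple) and in IP (green). All points are open because none passed the test. In total RNA all 10 points lie at or right of 0, and in IP Acta2, Tagln, Cnn1 and Lmod1 lie left of it.

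The second comparison set KO IP against WT IP. To the extent that the protein is absent, the KO IP holds what the antibody recovers without its target. None of the 10 genes and none of 10730 genes tested passed (0%; edgeR quasi-likelihood test, adjusted p under 0.05), with 1128 genes (10.5%) at an unadjusted p under 0.05. DESeq2 called 57 genes at an adjusted p under 0.05, with none of the 10 among them. The fold change was above 0 for 6 of the 10 genes and for 50.9% of all genes. The median log2 fold change of the 10 genes was 0.05 and that of all genes 0.01. It was below 0 without WT IP library 1 (-0.053), WT IP library 2 (-0.022) or KO IP library 2 (-0.105), and 0.095 without KO IP library 1.

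Tagln had the smallest p of the 10 and was the 1 gene of them with an unadjusted p under 0.05, which with KO lower held for 4.83% of all genes. It had 123 and 133 CPM in KO IP and 181 and 214 CPM in WT IP. Both KO libraries were below both WT libraries, and the log2 fold change was -0.62 ± 0.22, with an unadjusted p of 0.014 and an adjusted p of 0.333 in edgeR's test. Acta2 had 88.6 and 92.3 CPM in KO IP and 99.3 and 135 CPM in WT IP, a log2 fold change of -0.37 ± 0.24 (adjusted p = 0.626, edgeR). Acta2 did not overlap either, with KO lower. With 2 libraries against 2, 20.3% of all genes did not overlap with KO lower and 20.8% with KO higher, and the 3 of the 10 mural genes without overlap were no larger a share of the list than the 41.1% of all genes.

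Notch3 was the gene without overlap and with KO higher, at 75.6 and 79.9 CPM in KO IP and 67.0 and 73.9 CPM in WT IP. The other 7 genes overlapped. Rgs5 had 446 and 512 CPM in KO IP and 323 and 494 CPM in WT IP, Pdgfrb 120 and 149 CPM in KO IP and 116 and 142 CPM in WT IP, and Cspg4 38.9 and 67.2 CPM in KO IP and 56.7 and 51.9 CPM in WT IP. Myh11 had 97.2 and 86.1 CPM in KO IP and 90.9 and 79.1 CPM in WT IP, and Mylk 42.1 and 62.3 CPM in KO IP and 45.0 and 51.4 CPM in WT IP. Their log2 fold changes lay between 0.03 and 0.23, each smaller than its standard error. Cnn1 had 16.2 and 7.62 CPM in KO IP and 16.4 and 12.5 CPM in WT IP, and Lmod1 9.72 and 4.62 CPM in KO IP and 8.43 and 12.5 CPM in WT IP. Lmod1 rested on 9 and 20 counts in KO IP and 18 and 29 in WT IP, so that its log2 fold change of -0.71 had a standard error of 0.62.

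The 10 fibroblast genes summed to 13862 and 12591 CPM in KO IP and 7733 and 6056 CPM in WT IP, and the 12 endothelial genes to 1552 and 2430 CPM in KO IP and 1390 and 1491 CPM in WT IP. The 10 mural genes summed to 1058 and 1194 CPM in KO IP and 1004 and 1267 CPM in WT IP, which overlapped. The part of these contents in the values of the mural genes was not tested.

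The third question was which mural transcripts were over-represented in the IP relative to total RNA of the same genotype. For this all 10 libraries were scaled and fitted together, so the CPM values differ somewhat from those above. In WT, 5 of the 10 genes passed with IP higher and none with IP lower, while 17.6% of all 14399 genes tested passed with IP higher and 19.4% with IP lower (37.0% in either direction). In KO, 3 of the 10 passed with IP higher and none lower, while 17.7% of all genes passed with IP higher and 18.8% lower (36.5% in either direction). Cnn1, Tagln and Myh11 passed in both genotypes, and Acta2 and Cspg4 passed in WT. Fold changes were above 0 for 7 of 10 genes in KO and 9 of 10 in WT, against 51.4% and 48.3% of all genes. IP and total RNA libraries did not overlap for 5 of the 10 genes in KO, 3 higher and 2 lower, against 61.3% of all genes (29.9% higher and 31.3% lower). In WT they did not overlap for 6 of the 10, all with IP higher, against 59.9% of all genes (27.4% higher and 32.5% lower). The median log2 of the 10 genes was 0.34 in KO and 0.60 in WT, against 0.04 and -0.05 for all genes. In KO it was 0.17 without KO total RNA library 1, 0.22 without WT IP library 2 and 0.12 without KO IP library 2. The medians of all genes in those fits were 0.029, -0.097 and -0.133, in the same order.

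Cnn1 had the largest fold of the 10. It had 14.4 and 6.85 CPM in KO IP against 0.961, 1.68 and 2.47 CPM in KO total RNA, and 14.7 and 11.3 CPM in WT IP against 1.29, 2.55 and 0.977 CPM in WT total RNA. Every IP library was above every total RNA library. The log2 fold change of IP over total RNA was 2.49 ± 0.53 in KO (adjusted p = 0.00256) and 3.01 ± 0.49 in WT (adjusted p = 0.000357), by edgeR's quasi-likelihood test. In WT it lay above 99.1% of all genes. These values rest on 15 and 33 counts in KO IP and 35 and 29 counts in WT IP.

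Tagln had 110 and 119 CPM in KO IP against 33.2, 51.8 and 72.6 CPM in KO total RNA, and 163 and 193 CPM in WT IP against 36.2, 42.8 and 31.5 CPM in WT total RNA. IP and total RNA did not overlap in either genotype, and the distance was wider in WT. The log2 fold change was 1.13 ± 0.27 in KO (adjusted p = 0.00506) and 2.27 ± 0.27 in WT (adjusted p = 3.46e-05), by the same edgeR test. Acta2 had 78.8 and 83.0 CPM in KO IP against 41.0, 62.8 and 79.4 CPM in KO total RNA, and 89.2 and 122 CPM in WT IP against 37.3, 49.2 and 28.9 CPM in WT total RNA. The lower KO IP library was inside the range of KO total RNA, while in WT both IP libraries were above all total RNA libraries. For Acta2 the log2 fold change was 0.41 ± 0.28 in KO (adjusted p = 0.273) and 1.46 ± 0.28 in WT (adjusted p = 0.00105, edgeR).

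Myh11 had 86.5 and 77.4 CPM in KO IP against 47.2, 52.0 and 57.0 CPM in KO total RNA, and 81.6 and 71.3 CPM in WT IP against 47.8, 54.7 and 40.1 CPM in WT total RNA. It was higher in IP by nearly the same amount in both genotypes, with a log2 fold change of 0.65 ± 0.20 in KO (adjusted p = 0.0191) and 0.68 ± 0.19 in WT (adjusted p = 0.0129, edgeR). In KO the call of Myh11 was lost without KO total RNA library 1 or 2, KO IP library 1 or 2, or WT IP library 2, at an adjusted p of 0.0529 to 0.0857 in edgeR's test. Without KO IP library 2, which left 1 KO IP library, the call of Tagln was lost too. The log2 fold change of Tagln was then 1.05, and fewer of all genes were called. In WT the calls of Myh11 and Cspg4 were lost without either WT IP library. In those fits 1 WT IP library remained and fewer of all genes were called. Without WT IP library 1 and 2 in turn, the log2 fold change was 0.57 and 0.70 for Myh11 and 0.66 and 0.72 for Cspg4. The call of Cspg4 was also lost without WT total RNA library 1 or 3 (adjusted p = 0.101 and 0.0903, edgeR).

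Cspg4 had 34.6 and 60.4 CPM in KO IP against 36.4, 49.6 and 42.4 CPM in KO total RNA, and 50.9 and 46.7 CPM in WT IP against 25.2, 38.2 and 24.2 CPM in WT total RNA. The KO IP libraries spanned the KO total RNA libraries, and the WT IP libraries were above them. Cspg4 had a log2 fold change of 0.21 ± 0.27 in KO (adjusted p = 0.571) and 0.74 ± 0.26 in WT (adjusted p = 0.0387, edgeR). Pdgfrb had 107 and 134 CPM in KO IP against 81.0, 119 and 101 CPM in KO total RNA, and 104 and 128 CPM in WT IP against 66.7, 80.5 and 95.1 CPM in WT total RNA. It did not pass in either genotype, with log2 fold changes of 0.27 ± 0.23 in KO and 0.52 ± 0.22 in WT (adjusted p = 0.368 and 0.0818, edgeR). In WT it passed in 2 of 17 alternative settings.

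Rgs5, the most abundant of the 10 in total RNA, was not among the genes higher in IP. It had 397 and 460.1 CPM in KO IP against 525, 746 and 639 CPM in KO total RNA, and 290.2 and 446 CPM in WT IP against 402, 460.2 and 370.2 CPM in WT total RNA. In KO every IP library was below every total RNA library, and in WT they overlapped. The log2 fold change of Rgs5 was -0.57 ± 0.24 in KO (adjusted p = 0.076) and -0.16 ± 0.24 in WT (adjusted p = 0.631, edgeR). In KO, Rgs5 passed with IP lower in 4 of 17 alternative settings. Within libraries, Rgs5 counts were 3.72 and 3.43 times those of Pdgfrb in KO IP and 2.79 and 3.49 times in WT IP, against 6.48, 6.24 and 6.33 times in KO total RNA and 6.02, 5.72 and 3.89 times in WT total RNA. Thus the ratio was lower in every IP library than in every total RNA library.

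Notch3 had 67.2 and 71.8 CPM in KO IP against 74.2, 99.6 and 76.2 CPM in KO total RNA, and 60.1 and 66.6 CPM in WT IP against 50.05, 66.7 and 71.8 CPM in WT total RNA. Its IP libraries were below all total RNA libraries in KO and among them in WT, and the log2 fold changes were -0.26 ± 0.22 in KO and 0.01 ± 0.21 in WT. Mylk had 37.5 and 56.0 CPM in KO IP against 32.0, 37.8 and 29.9 CPM in KO total RNA, and 40.4 and 46.4 CPM in WT IP against 27.4, 30.4 and 41.3 CPM in WT total RNA. Lmod1 had 8.65 and 4.15 CPM in KO IP against 7.45, 12.3 and 9.16 CPM in KO total RNA, and 7.57 and 11.3 CPM in WT IP against 7.59, 9.72 and 7.54 CPM in WT total RNA. The groups overlapped for both genes in both genotypes, and neither passed the test, though Mylk did so in 3 of 17 alternative settings in KO and 1 of 17 in WT. The log2 fold changes were 0.53 ± 0.24 in KO and 0.39 ± 0.24 in WT for Mylk, and -0.82 ± 0.40 in KO and 0.19 ± 0.35 in WT for Lmod1.

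**Figure D4:**
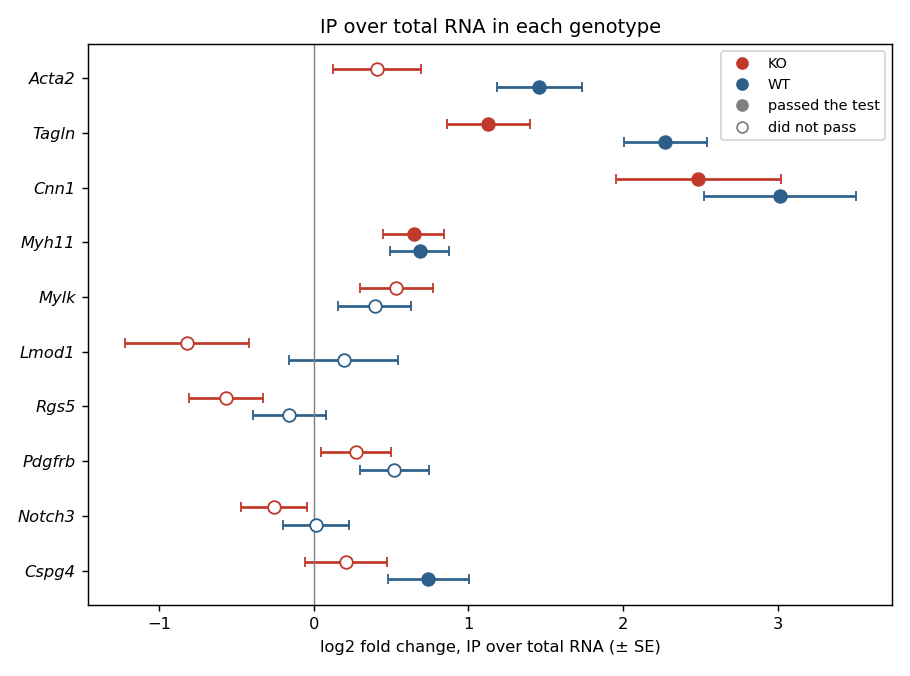
Log2 fold change of IP over total RNA (x axis, points, with bars of ± SE) for each of the 10 genes in KO (red) and WT (blue). Filled points passed the test at an adjusted p of 0.05. Cnn1, Tagln and Myh11 are filled in both genotypes, and Acta2 and Cspg4 in WT.

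Whether these folds differ between the genotypes was tested directly, as the difference of IP over total RNA in KO minus that in WT. None of the 10 genes passed, and 1 of 14399 genes did (0.00694%; edgeR quasi-likelihood test). An unadjusted p under 0.05 was found for 2 of the 10, both with KO lower, and for 11.8% of all genes (5.38% with KO lower). The difference was above 0 for 1 of the 10 genes and for 51.3% of all genes. The estimate was furthest below 0 for Tagln, at -1.14 ± 0.38 (unadjusted p = 0.00958, adjusted p = 0.342), and next for Acta2, at -1.05 ± 0.40 (unadjusted p = 0.0197, adjusted p = 0.352), followed by Lmod1 at -1.01 ± 0.53. Both Tagln and Acta2 combine a KO total RNA level above WT with a KO IP level below WT. Cspg4 was at -0.53 ± 0.38, Cnn1 at -0.53 ± 0.73 and Rgs5 at -0.41 ± 0.33. Notch3 was at -0.27 ± 0.30, Pdgfrb at -0.25 ± 0.32, Myh11 at -0.04 ± 0.28 and Mylk at 0.14 ± 0.34. The median of the 10 genes was -0.47 and that of all genes 0.02. With library size alone, those medians were -0.11 and 0.40, and Myh11, Pdgfrb and Notch3 were above 0. With 1 library left out at a time the median of the 10 genes lay between -0.64 (without WT total RNA library 2) and -0.27 (without KO IP library 1). Tagln then lay between -1.39 and -0.84 and Acta2 between -1.27 and -0.82. Others moved more. Lmod1 was -1.40 without KO IP library 1 and -0.35 without KO IP library 2, Cspg4 -1.05 without KO IP library 2 and -0.24 without KO IP library 1, and Rgs5 -0.68 without WT IP library 1 and -0.11 without WT IP library 2. Pdgfrb lay between -0.44 and -0.098 and Notch3 between -0.37 and -0.12. The order of the genes depended on single libraries, Lmod1 being furthest below 0 without KO IP library 1.

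The same ratios within libraries do not depend on that scaling. Tagln counts were 1.27 and 1.54 times those of Myh11 in KO IP and 2.00 and 2.71 times in WT IP, so the KO IP libraries were below both WT IP libraries, and the lower of them was within the range of KO total RNA (0.702 to 1.27 times). Acta2 counts were 0.911 and 1.07 times those of Myh11 in KO IP and 1.09 and 1.71 times in WT IP. The KO IP values of Acta2 lay inside the range of KO total RNA (0.868 to 1.39 times), and both WT IP values lay above WT total RNA (0.720 to 0.898 times). Cnn1 counts were 0.167 and 0.0880 times those of Myh11 in KO IP and 0.180 and 0.158 times in WT IP, against 0.0200 to 0.0430 in KO total RNA and 0.0240 to 0.0470 in WT total RNA. With 2 IP libraries in each genotype, an exact permutation test of such a ratio could not reach p under 0.05 and was not run.

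Over all genes, short transcripts had the higher folds of IP over total RNA, and the mural genes differ widely in length. The median log2 of IP over total RNA was 0.29 in KO and 0.45 in WT for the 2349 genes with up to 2000 exon bases, 0.20 in KO and 0.17 in WT for the 4294 genes of over 2000 to 4000 bases, 0.00 in KO and -0.16 in WT for the 5268 genes of over 4000 to 8000 bases, and -0.31 in KO and -0.46 in WT for the 2420 longer genes. Tagln has 1988 exon bases, Acta2 2196, Cnn1 2736 and Lmod1 3948. Rgs5 (4546 bases), Pdgfrb (5478) and Myh11 (7599) share the third class, and Notch3 (8089), Mylk (11263) and Cspg4 (11931) the last. Cnn1, Tagln, Myh11 and Mylk were above the median of their length class by more than 2 standard errors in both genotypes, and Acta2, Pdgfrb, Cspg4 and Notch3 were so in WT. Lmod1 and Rgs5 were below the median of their class by more than 2 standard errors in KO and close to it in WT. The share of all genes lying that far from their class median was not computed, so there is no background for these distances. In the test of IP over total RNA against 0, 36.5% of all genes passed in KO and 37.0% in WT. That test asks another question and does not give such a background. The part of length in each gene's fold was not tested.

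**Figure D5:**
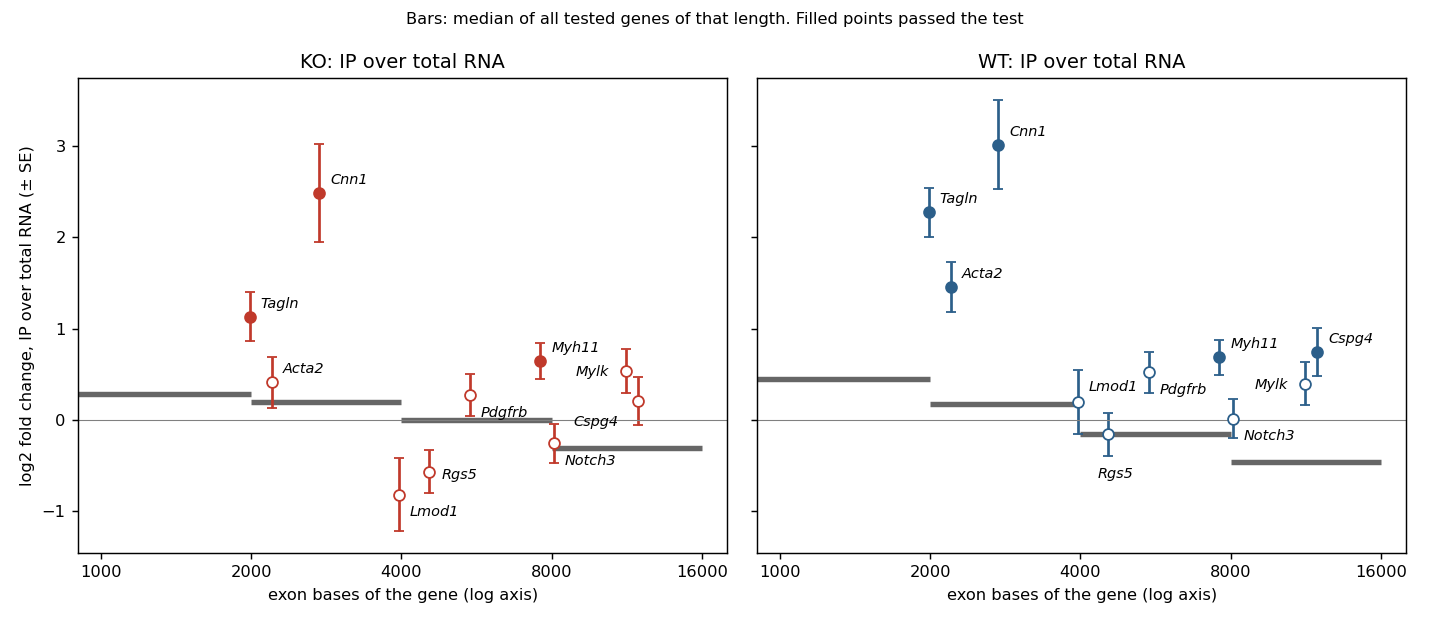
Log2 fold change of IP over total RNA (y axis, points, with bars of ± SE) against the number of exon bases (x axis, log scale) for the 10 genes in KO (left) and WT (right). Grey bars are the median of all tested genes in each of 4 length classes. Cnn1, Tagln, Myh11 and Mylk stand above the bar of their class in both panels, and Lmod1 and Rgs5 lie below it in KO.

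Related genes of both cell types were found on both sides of total RNA, as were genes in general. Of all 14399 genes tested, 17.7% passed with IP higher and 18.8% with IP lower in KO, and 17.6% and 19.4% in WT. Of the 12 further contractile genes, 3 passed with IP higher and 2 with IP lower in KO, and 6 passed higher and 2 lower in WT. Myl9 was higher in IP, with a log2 fold change of 2.22 ± 0.27 in KO and 2.64 ± 0.27 in WT (adjusted p = 4.9e-05 and 1.61e-05, edgeR). Vcl was lower in IP, with -3.72 ± 0.41 in KO and -4.44 ± 0.41 in WT (adjusted p = 2.9e-05 and 8.18e-06, edgeR). Of the 14 further pericyte genes, 5 passed higher and 2 lower in KO, and 6 passed higher and 2 lower in WT. Ndufa4l2 was higher in IP, with 1.44 ± 0.29 in KO and 2.27 ± 0.28 in WT, as was Kcnj8, with 1.09 ± 0.23 in KO and 1.27 ± 0.22 in WT. Steap4 was lower in IP, with -1.14 ± 0.23 in KO and -0.85 ± 0.22 in WT, and Vtn did not pass, with -0.03 ± 0.31 in KO and 0.10 ± 0.32 in WT.

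Among the 28 tested recruitment and Notch genes, 7 passed higher and 5 lower in KO, and 6 passed higher and 4 lower in WT. The shares of all genes were 17.7% higher and 18.8% lower in KO, and 17.6% higher and 19.4% lower in WT. S1pr3 had a log2 fold change of 0.85 ± 0.33 in KO, which did not pass, and of 1.31 ± 0.34 in WT, which did (adjusted p = 0.0611 and 0.00767, edgeR). Of 10 tested regulators, none passed higher and 1 lower in KO, and 2 passed higher and 2 lower in WT. Csrp1 was higher in WT IP (0.74 ± 0.25, adjusted p = 0.0333) and was at 0.01 ± 0.26 in KO, and Fhl1 was lower in WT IP (-0.88 ± 0.33, adjusted p = 0.0478) and at -0.62 ± 0.32 in KO, by edgeR's test. Acta1, the fibre counterpart of Acta2, was lower in IP in KO, with -1.23 ± 0.40 (adjusted p = 0.0286, edgeR), and was at -0.03 ± 0.39 in WT. Acta2 counts came to 0.283% and 0.396% of those of Acta1 in KO IP and 0.285% and 0.314% in WT IP, above its share in every total RNA library.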

How the data were processed

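The deposited files hold whole-number counts of reads per Ensembl gene and library, made by the authors with STAR and HTSeq on mm10/GRCm38, per the submitters' processing notes. Versions, annotation release and strand setting: not given in the sources used here. Reads given to no gene (41.2% to 58.7% of all reads, including 26.1% to 43.3% aligned to several places) were left out. No label states that libraries of a group are different animals, and the p-values therefore describe the spread between libraries, which may be technical. The 10 genes and the gene lists were chosen with earlier results of these data known. Positions and exon lengths came from GENCODE M21, symbols also from NCBI tables.

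Low genes were removed with filterByExpr. The rest were scaled with TMM and compared by quasi-likelihood F tests (edgeR 4.0.16, R 4.3.3, two-sided, group as the only term, Benjamini-Hochberg at 0.05), a procedure that was tested on simulated data. KO over WT was fitted on 6 total RNA or 4 IP libraries, and IP over total RNA on all 10. Standard errors were derived from the F statistic. Genes named were the 10, up to 4 of each described list with the smallest p in total RNA, family members where reads are discussed, the 5 genes nearest to the average profile and Igf2bp2. Alternatives were other scalings, no filter, DESeq2 1.42.0, limma 3.58.1 with voom, each library left out, a replicate block and another gene length. Replicate numbers were not taken as pairs.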

Additional observations from a re-analysis of the deposited data

How the results depend on the processing

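None of the 10 genes passed in total RNA, in IP between genotypes, or in the difference between genotypes under any alternative run, and of 750 alternative values of single genes 685 kept both direction and side of the threshold, 12 lost the call, 12 gained it and 41 changed sign. In total RNA, 64 genes were called with no filter on low counts and 5 with DESeq2. The median log2 of the 10 genes was 0.13 with library size alone, where Myh11 was -0.081, Cnn1 -0.11 and Mylk -0.23, and 0.69 without KO library 1 and WT library 2 together, where Mylk was -0.0185. With each library left out in turn, Cnn1 lay between -0.25 and 0.60 and Mylk between -0.12 and 0.21. In IP between genotypes, genes called were 1 with library size alone, 103 with no filter, 57 with DESeq2, 3 with limma-voom, 28 with the replicate block, 1 with all 10 libraries in the fit, and 13 to 146 with 1 library left out (136 without WT 1, 59 without WT 2, 146 without KO 1). Cspg4 was -0.007 with DESeq2, -0.036 with the block and -0.48 to 0.30 with 1 library left out, where Rgs5 was -0.043 to 0.57, Pdgfrb -0.10 to 0.23, Myh11 -0.0031 to 0.20, Cnn1 -0.92 to 0.17 and Mylk -0.19 to 0.36.

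In KO IP over total RNA, 5 of the 10 genes passed with library size alone, where their median was 0.77, the median of all genes 0.47 and Notch3 0.16, and 5 passed with the replicate block (Acta2 and, with IP lower, Rgs5 added). Of all 14399 genes, 5706 were called in KO with library size alone. With the block, 5271 were called in KO and 5054 in WT. With 1 library left out, 1 to 4 of the 10 genes and 2148 to 5706 genes were called, the median was 0.12 to 0.46 and Cspg4 -0.32 to 0.49. All the lowest values were those without KO IP library 2, the deepest IP library, where the median of all genes was -0.133. In WT, 7 of the 10 were called with the block (Pdgfrb and Mylk added, adjusted p = 0.00531 and 0.0394 in edgeR). With 1 total RNA library left out, 4 or 5 of the 10 and 4599 to 5151 of all genes were called. Fewer of both were called with 1 WT IP library left out. Over all fits with 1 library left out, Notch3 was -0.14 to 0.12, Rgs5 -0.58 to 0.10 and Lmod1 -0.21 to 0.43. Notch3 was -0.034 with no filter. For the difference between genotypes, genes called were 0 with library size alone and with limma-voom, 263 with no filter, 17 with DESeq2, 147 with the replicate block and 0 to 1 with 1 library left out. There the median was -0.11 with library size alone, with Myh11 0.32, Pdgfrb 0.14 and Notch3 0.11. With the block Myh11 was 0.13, Cnn1 0.026 and Mylk -0.16, and with 1 library left out Myh11 was -0.17 to 0.069, Mylk -0.22 to 0.37 and Cnn1 -1.02 to 0.052. The cause was not tested in any of these.

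Cnn1 passed in IP over total RNA in 17 of 17 alternatives in each genotype, Tagln in 16 of 17 in KO and 17 of 17 in WT, and Acta2 in 2 of 17 in KO and 17 of 17 in WT. Myh11 passed in 12 of 17 in KO and 15 of 17 in WT, and Cspg4 in 13 of 17 in WT. Rgs5 (IP lower) passed in 4 of 17 and Mylk in 3 of 17 in KO, and Pdgfrb in 2 of 17 and Mylk in 1 of 17 in WT. No label ties the numbers to animals. Deviations of same-numbered libraries correlated at 0.116, -0.135 and -0.337 between KO and WT total RNA, -0.074 between KO and WT IP, 0.144 and 0.164 between KO IP and KO total RNA, and 0.111 and 0.115 between WT IP and WT total RNA, where 2 IP libraries deviate as mirror images of each other and give 2 pairs in each genotype. In WT total RNA, the order of levels per kilobase was the same with the longest transcript in place of merged exons and with library size alone. In KO total RNA, Tagln (30.8 CPM per kilobase) stood above Acta2 (28.02) with the longest transcript. With that length, Cspg4 was at 4.92, Mylk at 3.96 and Lmod1 at 2.27 in KO. Tagln was at 21.6 and Pdgfrb at 14.0 in WT. These genes lay further apart than with merged exons, so the statements on their spread hold for merged exons only. Precision is limited by 2 IP libraries in each genotype, of which KO IP library 1 held 917462 counts, and by the low counts of Cnn1 and Lmod1.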
